A study of Mus musculus with 4 samples.

Results

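The open chromatin around 9 marker genes of monocytes and macrophages was described in mouse livers after ligation of the bile duct. The genes were Csf1r, Cx3cr1, Adgre1, Ly6c2, Cd68, Lyz2, Chil3, S100a4 and Plac8, out of 25458 genes with at least 1 assigned peak. A line of the authors' peak annotation belonged to the set if its gene was 1 of the 9 and its type was promoter or distal. This gave 67 of 106319 peaks in the Mertk knockout library and 62 of 72302 peaks in the wild-type library, and 8 of the 9 genes had a peak in the knockout against 9 of 9 in the wild type.

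The series holds liver nuclei of Mertk knockout mice and of wild-type mice, both after bile duct ligation, a model in which blocked bile flow leads to fibrosis. Mertk encodes a receptor kinase that macrophages use to engulf dying cells. The labels do not give the deleted part of Mertk, whether the deletion is confined to a cell type, the strain, sex or age of the mice, the time after ligation, or how many animals were used. A 10x Genomics Multiome kit measured both RNA and transposase-accessible DNA (ATAC) in each nucleus. Each genotype had 1 ATAC library, so there was no replicate, no test and no p-value, and all values describe these libraries.

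Monocytes are made in the bone marrow, circulate in blood and enter injured tissue, where they become macrophages. In the mouse, classical monocytes carry much Ly6C, and patrolling, non-classical monocytes carry little Ly6C and much of the fractalkine receptor CX3CR1. The liver also has resident macrophages, the Kupffer cells. Growth and survival of this lineage depend on the CSF1 receptor, and its enhancers and promoters are commonly bound by the ETS factor PU.1, often with C/EBP, AP-1 or Runx factors.

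Nuclei called by the authors numbered 5339 in the knockout and 5828 in the wild-type library, and they held 83996145 and 40858512 ATAC fragments. The knockout list had 1.47 times as many peaks and covered 91.3 Mb, against 61.8 Mb. Mertk itself had 13 peaks in the knockout and 10 in the wild type, with a promoter peak in each, which does not check the genotype because the deleted part is not given. A deposited peak has a position but no height, so the comparison rests on which peaks were called. Each library has 1 peak list for all of its nuclei, so fewer cells of a type and less accessibility per cell cannot be told apart.

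Promoter windows of 5 genes are shown because they cover the ways in which these start sites differed: Ly6c2 and Lyz2 lay inside a peak in both libraries, Plac8 and S100a4 in the wild-type library alone, and Chil3 in neither. Each window runs from 250 bases before to 50 bases after a RefSeq start (GRCm38.p6, the assembly behind mm10), 5′ to 3′ on the gene's strand. Capitals mark matches on either strand to motifs of PU.1 (GAGGAAGT), of the C/EBP family (TTGCNNAA), of the dimeric factor AP-1 (TGANTCA), of the Runx family of factors (TGTGGTT) and of the TATA box, which places the start of many genes (TATAAA). No match overlapped another.
Ly6c2, chr15:75111922-75112221, minus strand: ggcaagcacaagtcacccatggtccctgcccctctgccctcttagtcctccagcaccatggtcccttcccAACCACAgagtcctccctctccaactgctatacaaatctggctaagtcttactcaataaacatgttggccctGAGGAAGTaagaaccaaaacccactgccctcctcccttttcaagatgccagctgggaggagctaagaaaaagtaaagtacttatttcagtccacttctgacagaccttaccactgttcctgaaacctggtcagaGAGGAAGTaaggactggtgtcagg
Lyz2, chr10:117282223-117282522, minus strand: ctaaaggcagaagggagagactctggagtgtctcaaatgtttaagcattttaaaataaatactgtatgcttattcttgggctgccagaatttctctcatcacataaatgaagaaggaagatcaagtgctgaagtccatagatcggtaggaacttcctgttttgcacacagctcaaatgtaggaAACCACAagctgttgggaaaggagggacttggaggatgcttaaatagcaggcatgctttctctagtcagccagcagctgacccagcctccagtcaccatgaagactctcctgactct
Plac8, chr5:100572156-100572455, minus strand: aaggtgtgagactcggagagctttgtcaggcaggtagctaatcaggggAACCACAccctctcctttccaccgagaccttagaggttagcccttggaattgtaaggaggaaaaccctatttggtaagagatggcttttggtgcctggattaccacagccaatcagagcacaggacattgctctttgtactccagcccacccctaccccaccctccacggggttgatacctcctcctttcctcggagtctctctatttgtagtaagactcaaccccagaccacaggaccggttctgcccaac
S100a4, chr3:90603520-90603819, plus strand: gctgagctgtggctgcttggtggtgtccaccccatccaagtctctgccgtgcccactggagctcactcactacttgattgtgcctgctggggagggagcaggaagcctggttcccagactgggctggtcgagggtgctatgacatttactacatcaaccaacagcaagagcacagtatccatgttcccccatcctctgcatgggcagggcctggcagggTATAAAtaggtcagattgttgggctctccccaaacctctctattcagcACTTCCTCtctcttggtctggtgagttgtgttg
Chil3, chr3:106167515-106167814, minus strand: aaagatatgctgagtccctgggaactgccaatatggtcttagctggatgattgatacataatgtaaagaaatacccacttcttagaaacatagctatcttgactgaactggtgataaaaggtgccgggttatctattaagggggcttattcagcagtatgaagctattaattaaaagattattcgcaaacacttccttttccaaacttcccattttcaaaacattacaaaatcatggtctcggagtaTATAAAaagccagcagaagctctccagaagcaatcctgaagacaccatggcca

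The printed Ly6c2 window held GAGGAAGT at 2 places, starting at -108 and 27 relative to its own start. Of all 32851 promoter windows, 3.20% held it at least once. A second Ly6c2 window, chr15:75111888-75112187, held the same 2 places at -142 and -8 relative to its start. Peak distances were measured from the end of the RefSeq span, which for Ly6c2 (75112066) is the start of neither window. S100a4 held GAGGAAGT on the other strand, starting at 18. The Runx letters, found in 5.27% of all windows, were present in Ly6c2, Lyz2 and Plac8. TATAAA, in 13.6% of all windows, lay at -31 in S100a4 and at -3 in Chil3. Of the windows not printed, that of Cd68 held TGAGTCA at -149 and -24 and a C/EBP match at -43, against 7.81% and 10.8% of all windows, and that of Cx3cr1 held none of the 5 motifs. Plac8 and S100a4, open in the wild-type library alone, shared none of the motifs searched, and a match describes letters, not binding. CpG dinucleotides in the printed windows numbered 0 in Ly6c2, 1 in Lyz2, 2 in S100a4, 3 in Chil3 and 5 in Plac8, against a median of 7 over all windows.

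**Figure D1:**
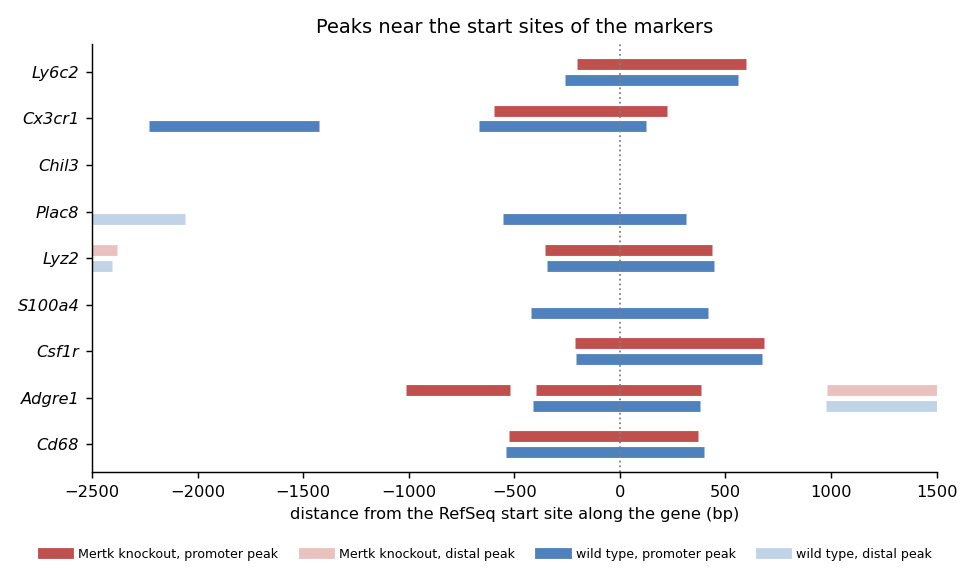
Peaks within 2500 bp before and 1500 bp after the RefSeq start site of each marker, as horizontal bars (x axis: bp along the gene; red, Mertk knockout; blue, wild type; dark, promoter peak; pale, distal peak). Csf1r, Cx3cr1, Adgre1, Ly6c2, Cd68 and Lyz2 have a bar over the start in both libraries, Plac8 and S100a4 in the wild type alone and Chil3 in neither.

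The start sites were the first comparison. Of the 9 markers, 6 had a listed promoter peak in the knockout and 8 in the wild type. The 6 of the knockout (Csf1r, Cx3cr1, Adgre1, Ly6c2, Cd68 and Lyz2) were among the 8 of the wild type, and the other two were Plac8 and S100a4. No marker had a promoter peak in the knockout alone. Of 17563 genes that had a promoter peak in either library, 15.4% had one in the knockout alone and 3.17% in the wild type alone, so the 2 markers of the 8 lay in the rarer class. Any peak within 1 kb of a RefSeq start gave the same genes in each library.

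Over all markers, peak numbers were near equal, with 67 in the knockout and 62 in the wild-type library. The knockout held 51.9% of these peaks (exact binomial interval 43.0% to 60.8%, counting error only) and 59.5% of all peaks. The interval includes 59.5%. It treats peaks as independent, although shared peaks enter once from each library, so it is a rough guide only. Summed length was 56.0 kb in the knockout and 52.3 kb in the wild type. Of the marker peaks, 43 of 67 in the knockout (64.2%) and 43 of 62 in the wild type (69.4%) were shared. A shared peak touched a peak of the opposite genotype over 1 bp or more. Over all peaks the shares were 49.3% and 72.4%. Many marker peaks were Cx3cr1 lines far from that gene, described below. Without Cx3cr1, 27 of 40 (67.5%) and 27 of 38 (71.1%) were shared. Among marker peaks assigned to 1 gene alone these were 32 of 43 (74.4%) and 32 of 42 (76.2%). The shared peaks of all markers lay at nearly the same place. Their centres differed by a median of 35 bp and at most 212.5 bp. Over all marker peaks, shared or not, widths had medians of 847 bp in the knockout and 853.5 bp in the wild type.

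Peaks without a partner numbered 24 in the knockout and 19 in the wild type, where 50.7% of all knockout and 27.6% of all wild-type peaks had none. The nearest peak of the other library lay 111 to 9118 bp away from the knockout ones and 828 to 39915 bp away from the wild-type ones. Only 2 of the knockout ones and none of the wild-type ones had such a neighbour within 500 bp. Whether a site was open but not called in the other library cannot be told from the peak lists.

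**Figure D2:**
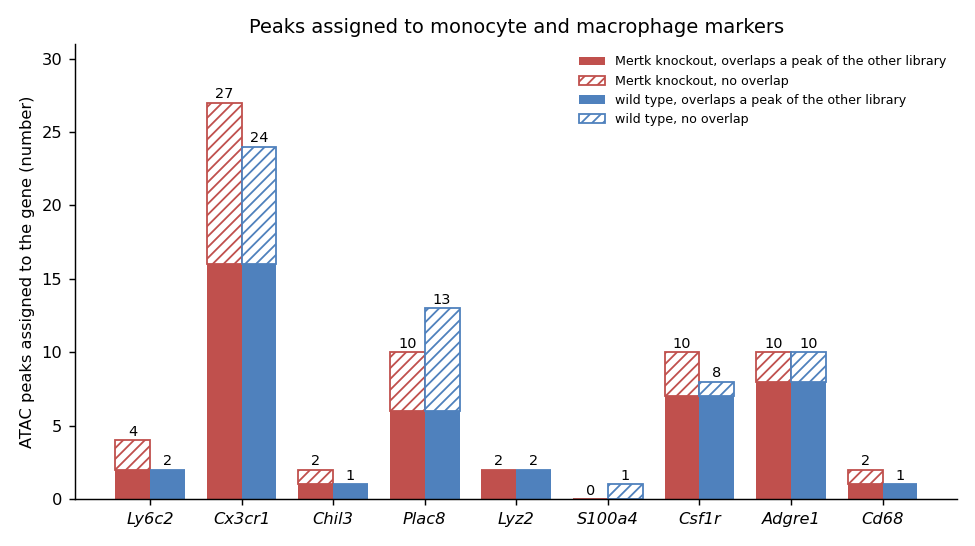
Number of peaks assigned to each marker (y axis) in the Mertk knockout (red, left) and wild-type library (blue, right); solid parts overlap a peak of the other library, hatched parts do not. Lyz2 has 2 solid peaks in each library, Plac8 has the most unshared wild-type peaks apart from Cx3cr1, and S100a4 has 0 and 1.

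Marker genes of other cell types also differed between the peak lists. A list of 12 hepatocyte genes had 106 peaks in the knockout and 25 in the wild type. Of these genes 7 had a peak in the wild type, while Alb, Cps1, Cyp2e1, Cyp3a11 and Serpina1a had 0 there. Some defining markers of the labelled tissue were thus absent from the wild-type list. Ttr, with 3 knockout and 4 wild-type peaks, and Ass1, with 5 and 7, went the other way. Of 8 stellate cell genes, 8 had a peak in the knockout and 5 in the wild type, with 62 and 8 peaks and Lrat, Des and Colec11 at 0 in the wild type. Endothelial genes (7 listed) had 112 and 65 peaks, and cholangiocyte genes (7 listed) 20 and 10. Of the latter, Krt7 and Cftr had 0 in the knockout and Krt7, Sox9 and Pkhd1 had 0 in the wild type. The knockout held 80.9% of the hepatocyte, 88.6% of the stellate, 63.3% of the endothelial and 66.7% of the cholangiocyte peaks, against 59.5% of all peaks. By the size rule given further below, 0 of 7 endothelial genes were higher and 0 lower. Lists of immune cells had closer numbers. These were 42 and 49 peaks for 7 Kupffer genes and 37 and 37 for 12 neutrophil genes. For 9 T and natural killer cell genes they were 24 and 32, and for 5 dendritic cell genes 14 and 21. The knockout held 46.2% of the Kupffer, 50% of the neutrophil, 42.9% of the T and natural killer and 40% of the dendritic cell peaks. Each share was below the 59.5% of all peaks. By the size rule 2 of 7 measured Kupffer and 1 of 6 measured neutrophil genes were lower. The T and natural killer and dendritic cell lists had 1 of 4 each. No gene of these lists was higher, beside 4.08% lower and 10.3% higher over all genes. Retnlg had 0 in the knockout and Ngp and Mpo 0 in the wild type, Nkg7 had 0 in the knockout, and Cd3g had 0 in both. The part of these differences in the marker values was not tested.

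Csf1r, the gene of the receptor for the growth factors CSF1 and IL-34, lies on chromosome 18 (61105572 to 61131139, plus strand). It had 10 peaks in the knockout and 8 in the wild type, with 8.35 and 6.43 kb. In each library 7 of them were shared. They lay over the start (213 bp before to 684 bp after it in the knockout, 207 bp before to 672 bp after it in the wild type), at about 18.5, 14.7 and 6.48 kb before it, and at about 3.06 and 15.1 kb inside the gene, with 1 more at 2.15 kb in the knockout and 2.23 kb in the wild type. The centres of the start-site peaks differed by 3 bp. Unshared peaks were at 4.91 and 22.1 kb inside the gene and 29.4 kb from the start, past its end, in the knockout. The wild type had 1, at 26.7 kb, and both peaks past the end were also assigned to Hmgxb3.

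Cx3cr1, the fractalkine receptor gene on chromosome 9 (120048683 to 120068296, minus strand), had the most lines, 27 in the knockout and 24 in the wild type, with 22.9 and 20.7 kb. Most of these did not lie at the gene. In the knockout 21 and in the wild type 18 lay past its RefSeq end, 25.04 to 135.8 kb and 24.95 to 142.9 kb from the start, and each was also assigned to another gene such as Csrnp1, Ttc21a, Gorasp1 or Xirp1. The authors' annotation gave these peaks a distance of 0 to Cx3cr1, although they lie outside the RefSeq span. Of the distant peaks 11 were shared in each library. At the gene itself 6 peaks remained in each library, 5 of them shared, with 5.25 kb in the knockout and 5.07 kb in the wild type. They lay over the start, about 5.09 and 5.05 kb before it, and at 9.43, 13.2 and 18.7 kb inside the gene in the knockout, against 9.41, 13.3 and 18.6 kb in the wild type. The unshared ones were a knockout peak at 16.6 kb inside the gene and a wild-type promoter peak 2229 to 1427 bp before the RefSeq start, also assigned to Gm33858. The numbers for this gene were thus near equal with or without the distant lines.

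Adgre1 encodes F4/80, the surface receptor long used to stain mouse macrophages, and lies on chromosome 17 (57358581 to 57483529, plus strand). It had 10 peaks in each library, 7.93 kb in the knockout and 8.10 kb in the wild type, and 8 were shared. Of the shared peaks, 6 formed a group before the gene, with centres from 23.7 to 11.4 kb before the start in both libraries, and the other two were over the start and at about 1.4 kb inside. The centres of the start-site peaks differed by 9.5 bp. The knockout had an extra promoter peak of 490 bp, which ended 111 bp from the wild-type start-site peak, and a distal peak 26.1 kb before the start. Only the wild type had peaks deeper in the gene, at 9.50 and 42.2 kb.

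Ly6c2, which encodes the Ly6C antigen of classical monocytes, lies on chromosome 15 (75108161 to 75112066, minus strand). It had 4 peaks in the knockout and 2 in the wild type, with 3.41 and 1.63 kb. Both wild-type peaks were shared, 1 over the start and 1 centred 8.25 kb before it in the knockout and 8.22 kb in the wild type. The others were a knockout peak 6.86 kb before the start and a knockout peak 12.6 kb after it, past the end of the gene. All 6 peaks were assigned to Ly6c2 alone. Its near copy Ly6c1 had 2 peaks in each library and no promoter peak, and the handling of reads that match both genes is not stated in the labels or headers.

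**Figure D3:**
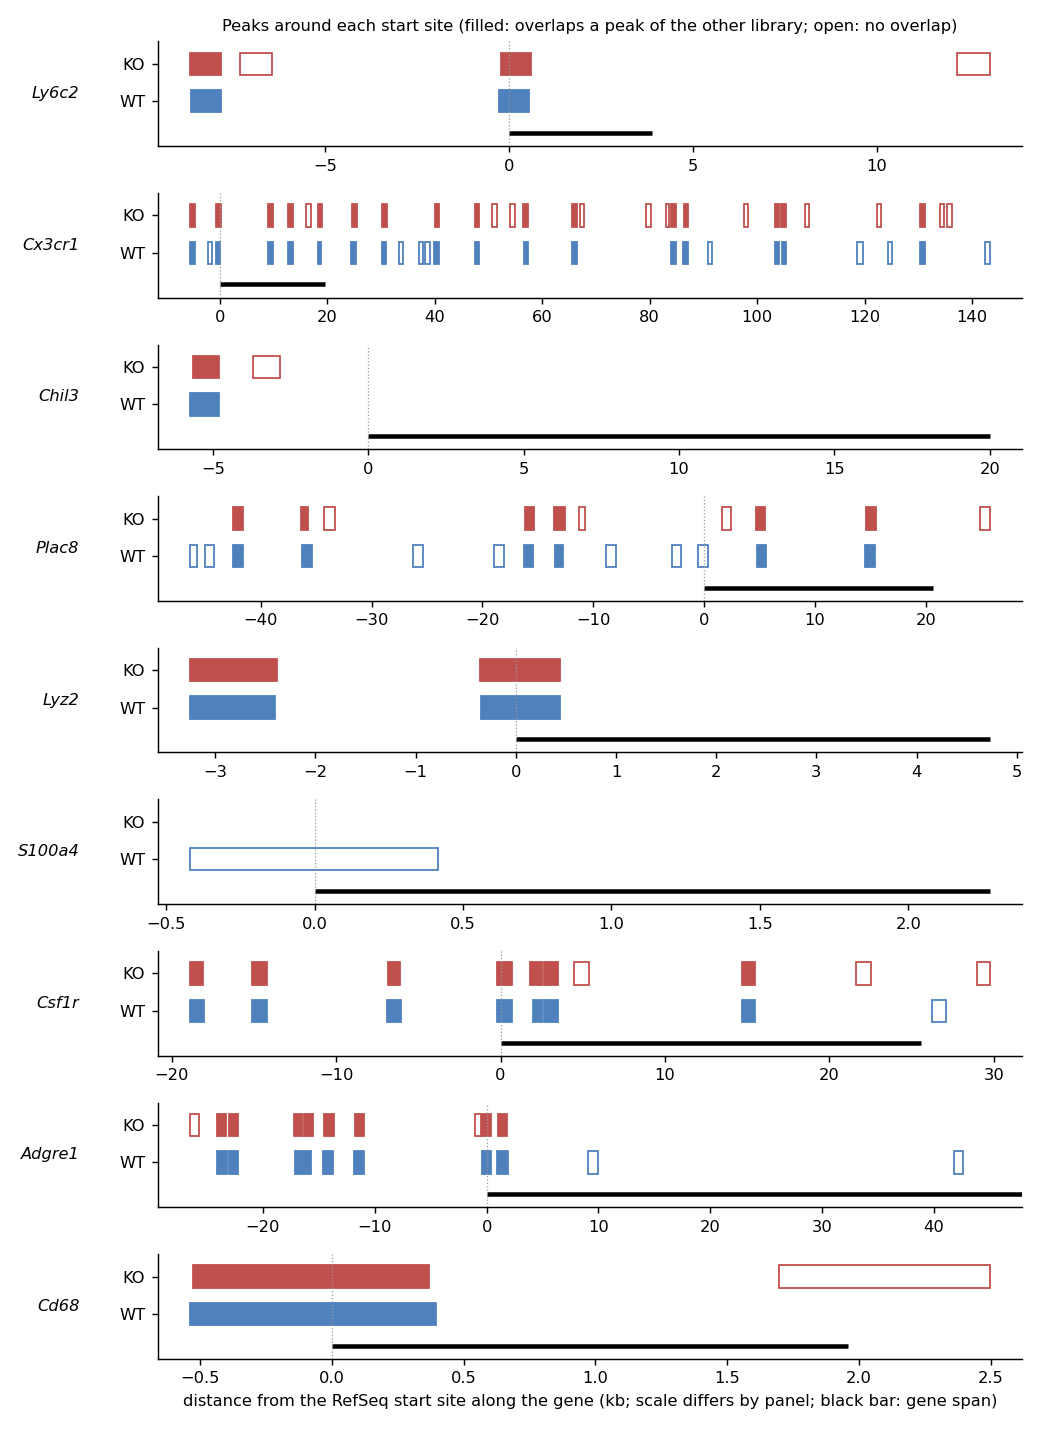
All peaks assigned to each marker by distance from its RefSeq start site (x axis in kb along the gene, a scale of its own per panel; red upper row, Mertk knockout; blue lower row, wild type; black bar, gene span, cut off for Adgre1). Filled boxes overlap a peak of the other library, open ones do not; the long row of Cx3cr1 boxes past 20 kb lies outside the gene.

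Cd68 encodes a lysosomal membrane protein of macrophages and lies on chromosome 11 (69664213 to 69666170, minus strand). It had 2 peaks in the knockout and 1 in the wild type, with 1.70 and 0.936 kb. The start-site peaks ran from 527 bp before to 369 bp after the start in the knockout and from 538 bp before to 397 bp after it in the wild type. The second knockout peak lay 2.10 kb from the start at the far end of the gene and was also assigned to Mpdu1.

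Lyz2, the lysozyme gene of myeloid cells, also used in neutrophils, lies on chromosome 10 (117277541 to 117282272, minus strand) and was the only marker whose peaks were all shared in both libraries. It had 2 peaks in each, 1.66 kb in the knockout and 1.64 kb in the wild type. The centres of the start-site peaks differed by 7.5 bp, and those of the peaks 2.81 kb (knockout) and 2.83 kb (wild type) before the start by 16 bp. Its neighbour and near copy Lyz1 had 6 peaks in the knockout and 9 in the wild type, of which only the wild type's included a promoter peak.

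Chil3 encodes Ym1, a chitinase-like protein secreted by alternatively activated macrophages and classical monocytes of the mouse. It lies on chromosome 3 (106147554 to 106167564, minus strand) and had 2 peaks in the knockout and 1 in the wild type, with 1.71 and 0.954 kb. None lay in the gene or over its start. A peak centred 5.23 kb (knockout) and 5.27 kb (wild type) before the start was shared, and a second, 3.28 kb before it, was in the knockout alone. Chil4, another chitinase-like gene, had 0 peaks in the knockout and 1 in the wild type.

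S100a4 encodes a calcium-binding protein of motile cells, among them monocytes, T cells and fibroblasts, and lies on chromosome 3 (90603770 to 90606045, plus strand). It had 0 peaks in the knockout and 1 in the wild type, a promoter peak of 836 bp from 420 bp before to 415 bp after the start. Within 10 kb of the gene 3 peaks were called in the knockout and 5 in the wild type, and the 3 of the knockout were assigned to other genes and shared. Of its neighbours, S100a6 had 4 peaks in the knockout and 6 in the wild type, and S100a3 had 3 and 4.

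Plac8, a gene of a small cysteine-rich protein made by several blood cells and often used to mark classical monocytes, lies on chromosome 5 (100551589 to 100572253, minus strand). Among the 9 markers it had the largest number of peaks in favour of the wild type, 10 in the knockout and 13 in the wild type, with 8.32 and 11.04 kb. In each library 6 were shared, 2 of them in the gene (5.06 and 15.1 kb from the start in the knockout, 5.15 and 15.0 kb in the wild type) and 4 before it. The wild type alone had a peak over the start (554 bp before to 312 bp after it) and others at 2.48, 8.42, 18.5, 25.8, 44.6 and 46.1 kb before it. The knockout alone had 4, at 11.02 and 33.8 kb before the start, 2.01 kb inside the gene and 25.3 kb from the start, past its end. A second RefSeq start, whose window is chr5:100563047-100563346, lay in no peak of either library.

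Accessible length was then set against that of all genes. Knockout length over wild-type length was put on a log2 scale after 1 kb was added to each, for genes with a mean of at least 2 kb, and centred on the median of these genes, 0.39. At or beyond 1 or -1 a gene was counted as higher or lower, a rule of size. Over all 14692 genes 10.3% were higher and 4.08% lower, 1514 and 600 genes. Scaled by total called length in place of the median gene these were 1131 and 999, and without centring 2884 and 197.

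Of the 9 markers, 5 reached the 2 kb minimum, and none was higher or lower. Plac8 had a centred log2 ratio of -0.76 and an uncentred one of -0.37, and Adgre1 had -0.42 and -0.03. Cx3cr1 had -0.25, with 0.14 uncentred, and Csf1r had -0.06, with 0.33 uncentred, so the direction of both flips with centring. Ly6c2 had 0.35 and 0.74, and stayed above 0 when scaled by total called length, at 0.18. For Lyz2, Cd68 and Chil3, which have few peaks and stay below 2 kb, uncentred ratios were 0.01, 0.48 and 0.47. S100a4 was below the minimum too, with 0 and 0.836 kb. Summed over all 9 markers the centred ratio was -0.30 and the uncentred one 0.10.

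**Figure D4:**
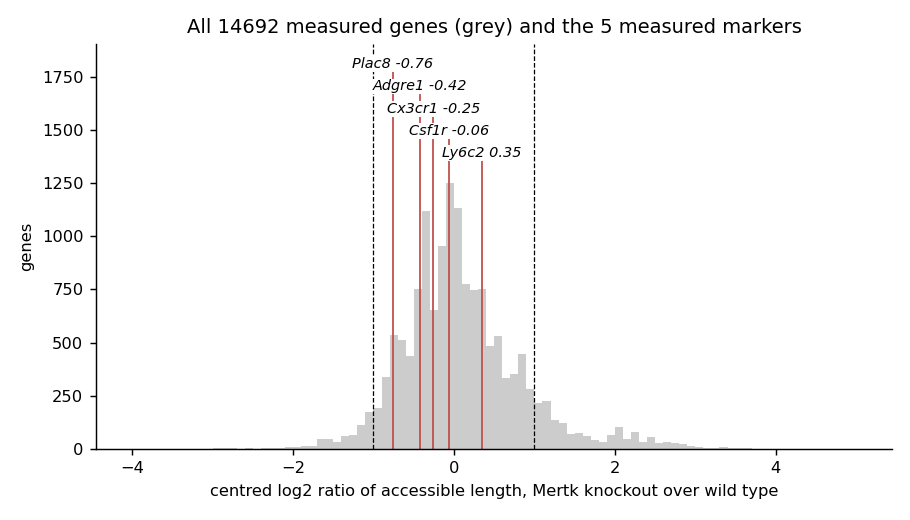
Centred log2 ratio of accessible length (x axis, Mertk knockout over wild type) for all 14692 measured genes (grey, number of genes on the y axis) with the 5 measured markers as red lines. All 5 lie between the dashed lines at -1 and 1, from Plac8 at -0.76 to Ly6c2 at 0.35.

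Other genes of the lineage were counted in the same way. Of 36 further monocyte and macrophage genes, 35 had a peak in each library, with 222 peaks in the knockout and 230 in the wild type. The knockout held 49.1% of these peaks, against 59.5% of all peaks. Of the 31 that reached 2 kb, 1 was higher, 4 were lower and 26 lay between, with a median centred ratio of -0.34 and an uncentred one of 0.06. The lower ones were Ccr2, the receptor that draws monocytes out of the marrow (5 peaks in the knockout and 9 in the wild type, -1.11), F13a1, the gene of a clotting factor subunit (2 and 7, -1.68), Treml4, a receptor of non-classical monocytes (2 and 8, -1.81), and Itgam, the gene of CD11b (8 and 15, -1.17). Mgst1, a glutathione transferase gene, was higher, with 8 and 2 peaks (1.24). Lgals3 and Vcan had a promoter peak in the wild type alone and Thbs1 in the knockout alone. By group, 2 of 9 classical monocyte genes were lower and 1 higher, while 1 of 6 non-classical monocyte genes and 1 of 16 general macrophage genes were lower and 0 higher, beside 4.08% lower and 10.3% higher over all genes.

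Genes of the ligands were described in the same way. Il34, which encodes a ligand of the CSF1 receptor, had 12 peaks in the knockout and 3 in the wild type (centred ratio 1.15, past the size rule), and Csf1, which encodes the other ligand, had 11 and 6 (0.36). Cx3cl1, which encodes the ligand of CX3CR1, had 6 and 4 (0.36), and Ccl2, the ligand of CCR2, had 3 and 2 (-0.05). Among the relatives of the markers, Ly6i was lower, with 1 and 5 peaks (-1.94), and Chil1 higher, with 5 and 0 and a promoter peak in the knockout alone (1.99). Adgre4 had 4 and 5 peaks and Adgre5 15 and 10, while S100a8 and S100a9 had 2 and 1 and 5 and 3. Ly6a and Ly6g each had 3 and 1, and Chia1 and S100a5 each had 1 and 0.

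**Figure D5:**
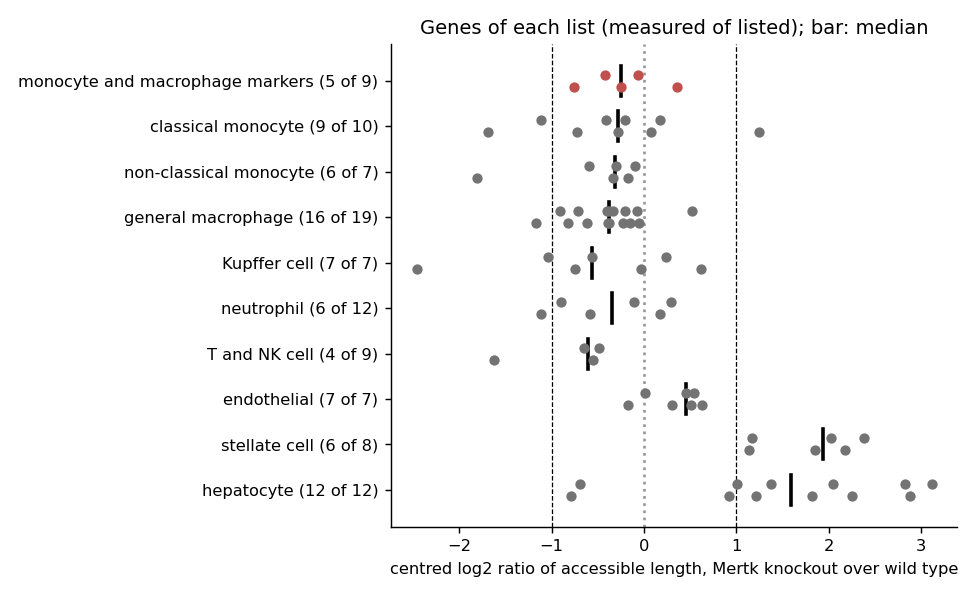
Centred log2 ratio of accessible length (x axis, Mertk knockout over wild type) for the measured genes of 10 lists, 1 dot per gene, with a bar at each list's median and the number measured of those listed. The 5 measured markers in red lie within -1 and 1, as do 26 of the 31 further monocyte and macrophage genes, while all 6 measured stellate cell genes lie past 1.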

How the data were processed

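Nuclei from frozen, bile duct-ligated liver of Mertk knockout and wild-type mice were read with the 10x Multiome assay, 1 library per genotype and assay. Per the file headers, the authors ran cellranger-arc 2.0.2 with an mm10 reference and called peaks per library. Peak caller settings are stated in neither headers nor labels. The deposited annotation gives peak positions, genes, peak type and a signed distance in bp, handled here as a score without a fixed range. Depth came from deposited tables of raw, not normalised counts per barcode.

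Peaks on other contigs (44 in the knockout, 43 in the wild type) and repeated lines were left out. Overlap, length sums, ratios and motif matches were computed with Python 3.11.15, numpy 2.4.6, pandas 2.3.3 and scipy 1.17.1, with figures from matplotlib 3.10.9, and the overlap and ratio code was tested on simulated data and against bedtools. Start sites, gene spans and promoter sequences are those of RefSeq on GRCm38.p6. All 9 markers matched a gene by symbol, and 7 had a promoter sequence that is used here.

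The members, lists, motifs and naming rule were chosen with earlier results of these data known. Named are the 9 markers, their ligands and relatives, and genes that share peaks with a marker. Also named are further lineage genes past the size rule or with a promoter peak in 1 library alone. From the other lists, genes at 0 and hepatocyte genes with more peaks in the wild type are named. A further marker list is not reported here. Alternatives varied the pseudocount, centring, minimum length, peak kind, assignment, width and overlap.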

Additional observations from a re-analysis of the deposited data

How the results depend on the processing

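No paired analysis was possible because each genotype had 1 ATAC library, and no replicate could be left out. Of 68 recomputed summary values 59 stayed near their main value. Ratios and counts counted as near within 1.5-fold, and percentages within the exact binomial interval of the main value. This rule is wide. The summed marker ratio, -0.30 in the main setting, counted as near at -0.81 with the widest knockout peaks and at 0.10 without centring. The count of 59 therefore does not show that the size or direction of a value was stable. With the widest knockout peaks alone, as many as in the wild-type list, the knockout part of marker peaks was 34.7% (33 against 62 peaks), 30.6% of wild-type marker peaks were shared, the knockout kept promoter peaks for 2 markers, 2 markers were lower (Plac8 and, at -1.73, Adgre1), Csf1r had a ratio of -0.69 in place of -0.06, and 8 further lineage genes were lower. That setting keeps peaks of at least 851 bp, while knockout marker peaks had a median of 847 bp. Without centring 2 further lineage genes were lower in place of 4, and within 10 kb of the RefSeq gene 0 were higher in place of 1 and Csf1r had a ratio of 0.08. With no minimum length 1 marker, S100a4, was lower. Over promoter peaks alone 85.7% of knockout marker peaks (6 of 7) and 66.7% of wild-type ones (6 of 9) were shared, against 78.9% and 93.5% of all promoter peaks, and no marker or lineage gene reached 2 kb. Where no construction is named, the cause was not tested.

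Over all genes, 1514 were higher and 600 lower. Of the same 14692 genes, these were 2884 and 197 without centring, 1131 and 999 by total called length, and 1047 and 310 with a 2 kb pseudocount. Other settings measured other numbers of genes. With no minimum length these were 2872 and 1334 of 25458 genes, and with the widest knockout peaks 1252 and 814 of 12715. Over promoter peaks they were 5 and 1 of only 216 genes, 2.31% and 0.46%. Peak numbers of 1 or 2 per marker cannot show small differences, and peaks carry no height.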
